A study of Mus musculus with 32 samples.

Results

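The serpins are the family of genes whose platform symbol begins with Serpin, and each was measured by the single-gene probe set of highest mean signal over all arrays. Of 46 such genes on the platform, 40 had a probe set of their own, among 18194 genes measured in the same way, and 6 (Serpina1a, Serpina1d, Serpina1e, Serpinb9e, Serpinb9f and Serpinb9h) were listed only in probe sets that also listed other genes. The 40 genes comprised 14 of clade A, 18 of clade B, 2 of clade F, 2 of clade I and 1 each of clades C, D, G and H.

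The study compared mouse embryonic liver with adult liver regrowing after hepatectomy, on Affymetrix Mouse Genome 430 2.0 arrays. The embryonic groups were CD-1 liver at 6 stages, each day from 10.5 to 14.5 days post coitum and then 16.5 days. The regenerating groups were liver of 10-week-old CD-1 females after a 2/3 hepatectomy with removal of the gallbladder, taken early (1, 2 and 6 h), in a middle phase (12, 18, 24 and 30 h) and late (48 and 72 h), and the control, called time 0, was normal liver of females of the same age. Each of the 16 groups had 2 arrays, and each array held RNA pooled from at least 3 tissues of different animals. None of the groups was a sham operation, so the hepatectomy and the anaesthesia, surgery and analgesia that went with it cannot be told apart.

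A serpin presents an exposed loop to a protease as bait, and when the protease cuts it the serpin changes shape and traps the enzyme in a covalent complex. Hepatocytes secrete many of the family into plasma, where they restrain clotting, fibrinolysis, complement and neutrophil proteases, and some of these are acute-phase proteins. Clade B serpins stay mostly inside cells and guard them against their own granule and lysosomal proteases, and a few members inhibit nothing: they carry hormones or help to fold collagen.

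Upstream sequences of 4 genes are shown because the alpha-1-antitrypsin genes are near copies, and because Serpina3n had the largest called change after hepatectomy. They are the 250 bases before the start used by the RefSeq promoter table in build GRCm38.p6 (for Serpina3n and Serpina3i this start lies inside the annotated gene), 5′ to 3′ on the gene's strand, in lower case with matches to GTTAAT (the left part of an HNF1-type site) and to TTCNNNGAA (a STAT-type site), searched on both strands, in capitals. Serpina1b lies at chr12:103738190-103738439 and Serpina1c at chr12:103904951-103905200, both on the minus strand; Serpina3n at chr12:104406458-104406707 and Serpina3i at chr12:104262872-104263121, both on the plus strand.
Serpina1b: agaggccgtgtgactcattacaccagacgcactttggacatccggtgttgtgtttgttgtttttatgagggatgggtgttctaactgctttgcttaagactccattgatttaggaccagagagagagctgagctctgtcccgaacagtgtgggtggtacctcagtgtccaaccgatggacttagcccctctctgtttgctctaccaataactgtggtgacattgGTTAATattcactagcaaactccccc
Serpina1c: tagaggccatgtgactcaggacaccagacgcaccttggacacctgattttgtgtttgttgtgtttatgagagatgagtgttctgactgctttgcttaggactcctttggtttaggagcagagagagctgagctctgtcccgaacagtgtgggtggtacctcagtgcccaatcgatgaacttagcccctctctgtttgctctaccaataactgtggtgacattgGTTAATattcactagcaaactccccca
Serpina3n: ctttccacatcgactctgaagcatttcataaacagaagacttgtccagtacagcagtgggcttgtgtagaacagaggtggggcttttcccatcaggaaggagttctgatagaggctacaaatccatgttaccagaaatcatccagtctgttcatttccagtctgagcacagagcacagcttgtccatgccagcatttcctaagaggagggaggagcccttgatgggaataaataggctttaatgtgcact
Serpina3i: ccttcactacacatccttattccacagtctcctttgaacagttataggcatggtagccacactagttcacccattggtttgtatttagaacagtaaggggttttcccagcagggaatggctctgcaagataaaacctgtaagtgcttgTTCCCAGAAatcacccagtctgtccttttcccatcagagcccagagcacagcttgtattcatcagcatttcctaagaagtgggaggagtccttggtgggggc
The Serpina1b and Serpina1c windows were identical at 229 of 252 aligned positions (90.9%), each with 1 GTTAAT match, which begins 26 bases before the start in Serpina1b and 27 bases before it in Serpina1c. The Serpina3n and Serpina3i windows were identical at 178 of 282 aligned positions (63.1%). No transcript or probe sequence was compared, so these identities do not show what a probe set can tell apart. GTTAAT was found in 5 of the 34 serpin genes with a promoter entry and in 7.49% of all genes with one, and TTCNNNGAA in 6 of 34 (Serpina11, Serpina1f, Serpina3i, Serpinb2, Serpinb6a and Serpinb9c) and in 8.13% of all genes. Serpina3n had no match to either. The full HNF1-type palindrome, searched without mismatches, was in none of the 34 and in 0.0111% of all genes. GTTAAT was picked as a search string after the windows had been seen.

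Signals are the deposited linear intensities, and changes are differences of log2(signal + 16), which understate the change of dim genes. A change was called at a limma adjusted p under 0.05 over all 18194 genes. The overall median signal was 74.6, and 31 of the 40 serpins exceeded it in the mean of at least 1 group. In the map of all 40 genes, Serpina1b, Serpina1c and Serpinc1 were lowest at 10.5 days and higher at each later stage up to 14.5 days, and Serpinh1 was highest at 10.5 days.

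**Figure D1:**
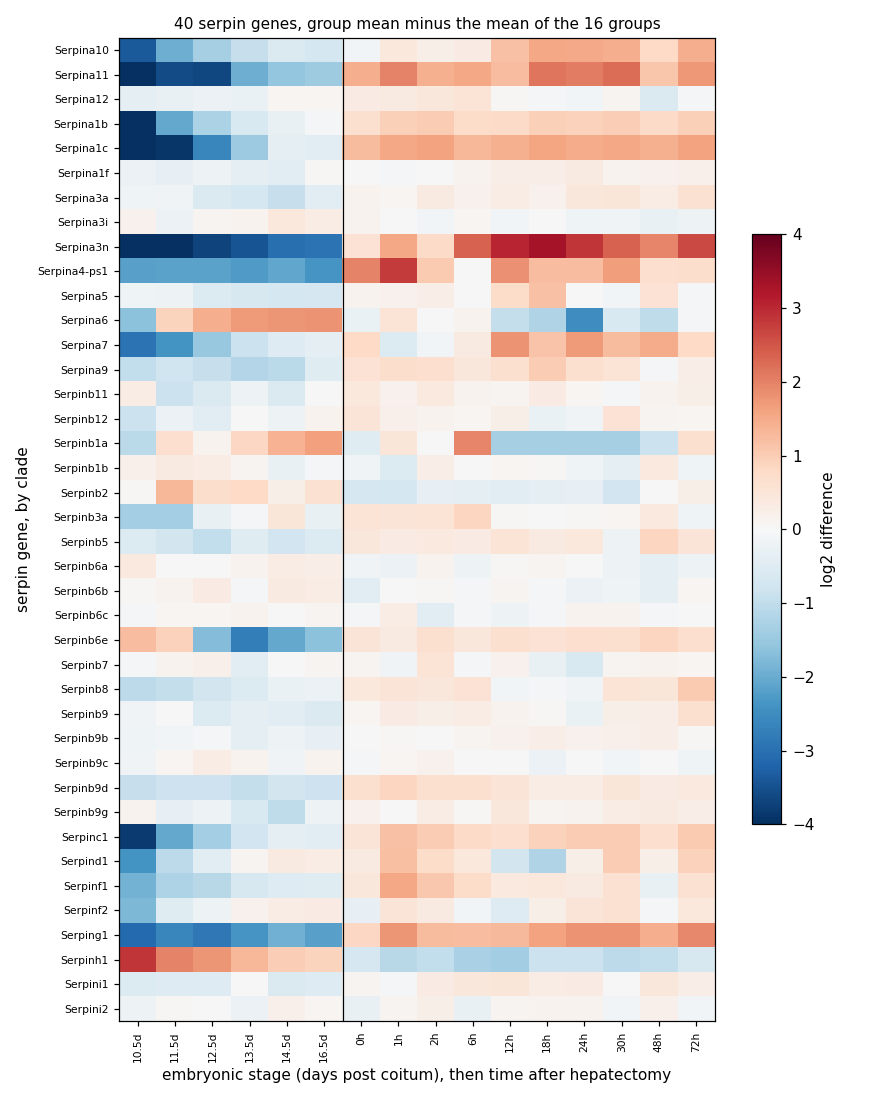
Each row is a serpin gene, by clade, and each column a group, embryonic stages left of the line and adult times right of it; colour is the group's mean log2(signal + 16) minus the mean of the 16 groups, with the scale ending at 4 log2 units either way. Serpina3n, Serping1 and Serpina11 were low across the embryonic columns, and Serpinh1 was high there. Serpina1c was lowest at 10.5 days and climbed through the later embryonic columns up to 14.5 days.

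Array medians lay between 69.7 and 79.5. Arrays of a group differed most at 48 h, where array 2 had the largest 3′ to 5′ log2 ratio of the Actb control probe sets (2.42, against 1.01 on array 1). All 10 serpins with a mean signal above 1000 were lower on 48 h array 2 than on array 1, with a median log2 difference of -1.46. At time 0 the same 10 were all higher on array 2, with a median of 0.83, so the control arrays themselves differed for the plasma serpins. At 12 h, where array 2 also had the higher Actb ratio (1.39, against 0.57 on array 1), and at 18 h all 10 were lower on array 2, with medians of -0.32 and -0.47. At 10.5 days all 10 were higher on array 2 (0.71), and array 1 had a Gapdh 3′ to 5′ log2 ratio of 1.49, against -0.32 on array 2.

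In the adult phases all 8 hepatocyte markers averaged above the overall median signal, and in the embryo 7 did and 1 averaged at or below 0. The sum of 8 hepatocyte markers ranged from 3363 to 29780 in embryonic liver, against 43720 and 51350 at time 0. The sum of 6 erythroid markers ranged from 1435 to 18120 in embryonic liver, against 413.8 and 451.8 at time 0. In such bulk samples fewer cells of a type and less RNA per cell cannot be told apart, and the part of the cell mixture in each serpin difference was not tested. Both arrays of 10.5 days carried signals of neighbouring organs, with a sum over 7 genes of 9425 and 5731, led by the cardiac genes Myl7 and Nppa, and array 2 of 12.5 days reached 3482, against 927.5 and 1066 at time 0.

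The first comparison asked how embryonic liver differed from normal adult liver. Most clade A serpins, and Serpinc1, Serpind1, Serpinf1 and Serping1, were lower in the embryo, and Serpinh1 and Serpina6 were higher. Of the 40 serpins, 27 were called between the mean of the 6 stages and time 0, 5 higher and 22 lower, where 55.7% of all genes were called (30.9% higher and 24.8% lower). The median log2 change of the 40 was -0.64, beside 0.02 for all genes. In clade A, 1 gene was higher and 10 were lower of 14, and in clade B 3 were higher and 8 lower of 18.

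Serpina3n, an acute-phase relative of human alpha-1-antichymotrypsin, ranged from 21.68 to 95.3 on the 12 embryonic arrays with a median of 52.63, against 915.2 and 1521 at time 0. The groups did not overlap, and the log2 change was -4.15 ± 0.33 (SE; adjusted p = 7.39e-10). Serping1, the C1 inhibitor that holds complement and contact proteases in check, ranged from 138.9 to 382.2 with a median of 235.3 in the embryo, against 1695 and 3914 at time 0. Its log2 change was -3.34 ± 0.30 (SE; adjusted p = 3.7e-09), and every embryonic array lay below both time 0 arrays.

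The alpha-1-antitrypsin genes Serpina1b and Serpina1c, which encode inhibitors of neutrophil elastase type proteases, were also lower. Serpina1c ranged from 0.8545 to 2283 in the embryo with a median of 794.2, against 6496 and 7402 at time 0 (log2 change -3.72 ± 0.39 SE; adjusted p = 4.05e-08). Serpina1b ranged from 99.61 to 4156 with a median of 2372, against 6256 and 7055 at time 0 (log2 change -2.09 ± 0.26 SE; adjusted p = 4.65e-07). Neither overlapped. The Serpina1b probe set is of a type that may bind several transcripts, and adult signals of both genes reached 62.2% to 79.8% of the brightest probe set on the array. The probe sets listed as Serpina1d or Serpina1a and as Serpina1e or Serpina1c or Serpina1b were lower too, with log2 changes of -1.885 ± 0.29 and -3.60 ± 0.30 (SE) in a fit over all probe sets.

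Serpinc1, antithrombin, the main inhibitor of thrombin, ranged from 153.5 to 2549 with a median of 1679 in the embryo, against 3325 and 6495 at time 0, without overlap (log2 change -1.97 ± 0.28 SE; adjusted p = 3.29e-06). Serpina10, which inhibits activated factor X with protein Z, and Serpinf1, the pigment epithelium-derived factor, fell by 1.36 ± 0.36 and 1.43 ± 0.26 on the log2 scale (SE); the Serpina10 call was lost without time 0 array 2. Serpind1, heparin cofactor II, fell by 0.88 ± 0.35 (adjusted p = 0.0385), a call that was lost without time 0 array 2 or any of 3 embryonic arrays, with adjusted p from 1.37e-05 to 0.396 over the alternatives run. Serpinf2, the alpha-2-antiplasmin that restrains plasmin, had a log2 change of 0.06 ± 0.38 (SE; adjusted p = 0.91) and was not called, but after quantile normalization it was called lower (-0.71; adjusted p from 0.00729 to 0.998 over the alternatives).

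Another 3 clade A genes were low throughout the embryo. Serpina11 ranged from -31.14 to 156.9 there with a median of 59.47, against 723.8 and 1797 at time 0 (log2 change -4.26 ± 0.46 SE; adjusted p = 7.25e-08). Serpina4-ps1, listed as a pseudogene, ranged from 24.68 to 50.17 with a median of 37.23, against 846.9 and 1060 at time 0 (log2 change -4.19 ± 0.35 SE). Serpina7, thyroxine-binding globulin, ranged from -0.9161 to 88.44 with a median of 50.48, against 185.6 and 257.9 at time 0 (log2 change -2.23 ± 0.27 SE). None of the 3 overlapped with time 0, but Serpina7 overlapped with the adult arrays as a whole, which ranged from 45.71 to 500.3. Over all 20 adult arrays, 10 serpins lay wholly above the 12 embryonic arrays, where 7.63% of all genes did, and 1, Serpinh1, lay wholly below them, where 15.4% of all genes did. The 10 were Serpina10, Serpina11, Serpina1b, Serpina1c, Serpina3n, Serpina4-ps1, Serpina9, Serpinb9d, Serpinc1 and Serping1.

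**Figure D2:**
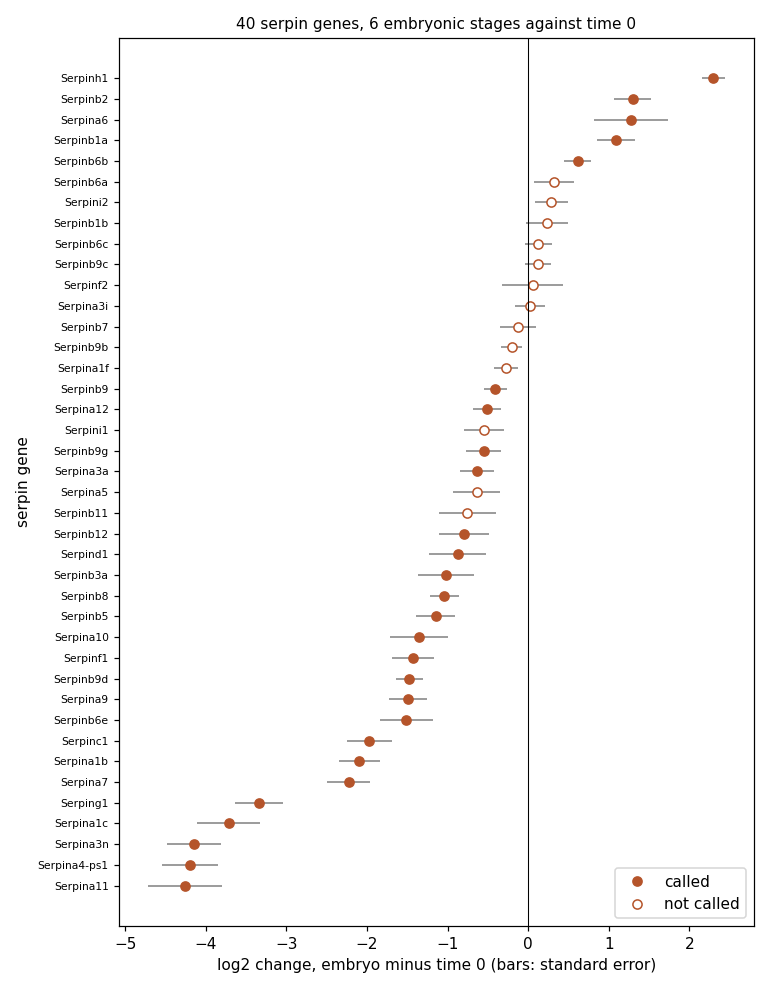
Points are the log2 change of each of the 40 serpin genes between the mean of the 6 embryonic stages and time 0, with bars of 1 standard error; filled points were called. Serpinh1 lies at 2.30 and the lowest gene, Serpina11, at -4.26.

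Within the embryo, 7 of 14 clade A genes and Serpinc1, Serpind1, Serpinf1, Serpinf2 and Serping1 rose with stage. Over the 6 stages 18 of 40 had a called change per day, 15 up and 3 down, where 27.9% of all genes were called (16.4% up and 11.5% down). A test for any difference among the stages called 16 of 40, where it called 21.2% of all genes. Serpina1c had 0.8545 and 105.1 at 10.5 days, 220.3 and 147.1 at 11.5 days, 594.9 and 353 at 12.5 days, 993.5 and 1094 at 13.5 days, 2188 and 2255 at 14.5 days and 2283 and 2045 at 16.5 days. Its slope was 0.94 ± 0.07 log2 units per day (SE; adjusted p = 2.89e-09), and both arrays of 16.5 days lay above all arrays up to 13.5 days. Serpina1b rose by 0.66 ± 0.05, Serpina11 by 0.58 ± 0.09, Serpinc1 by 0.53 ± 0.05 and Serpina7 by 0.45 ± 0.05 log2 units per day (SE). In clade B the called slopes were 0.40 for Serpinb1a on its used probe set, 0.25 for Serpinb3a and 0.15 for Serpinb8. Serpinb6e and Serpinb9 had called slopes of -0.54 and -0.08. Serping1 and Serpina3n had smaller called slopes of 0.17 and 0.24 (limma adjusted p = 0.0313 and 0.00648), and the test for any difference among the stages did not call Serping1. The slope calls of Serping1, Serpina3n, Serpinb3a, Serpinb8 and Serpinb9 were lost in some of the alternatives run.

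The stages did not bring all genes to the same share of the time 0 level. At 16.5 days the mean signal of Serping1 was 10.9% of its time 0 mean and that of Serpina3n 7.28%, while Serpinc1 had reached 48.6%, Serpina1b 61.7% and Serpind1 93.8%. Serpinf2 stood at 152%, with 3908 and 3752 at 16.5 days, against 1723 and 3317 at time 0. Over all 20 adult arrays Serpinf2 averaged 3642, with values from 1164 to 5794. In the direct comparison of 16.5 days with time 0, added after the data had been seen, 19 serpins were called, 5 higher and 14 lower, where 42.6% of all genes were called (26.2% higher and 16.5% lower). The log2 change at 16.5 days was -3.02 ± 0.39 for Serping1, -3.51 ± 0.44 for Serpina3n and -0.96 ± 0.37 for Serpinc1 (SE), and the Serpinc1 call was lost without time 0 array 2 or either 16.5 day array (adjusted p from 2.06e-07 to 0.407 over the alternatives).

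**Figure D3:**
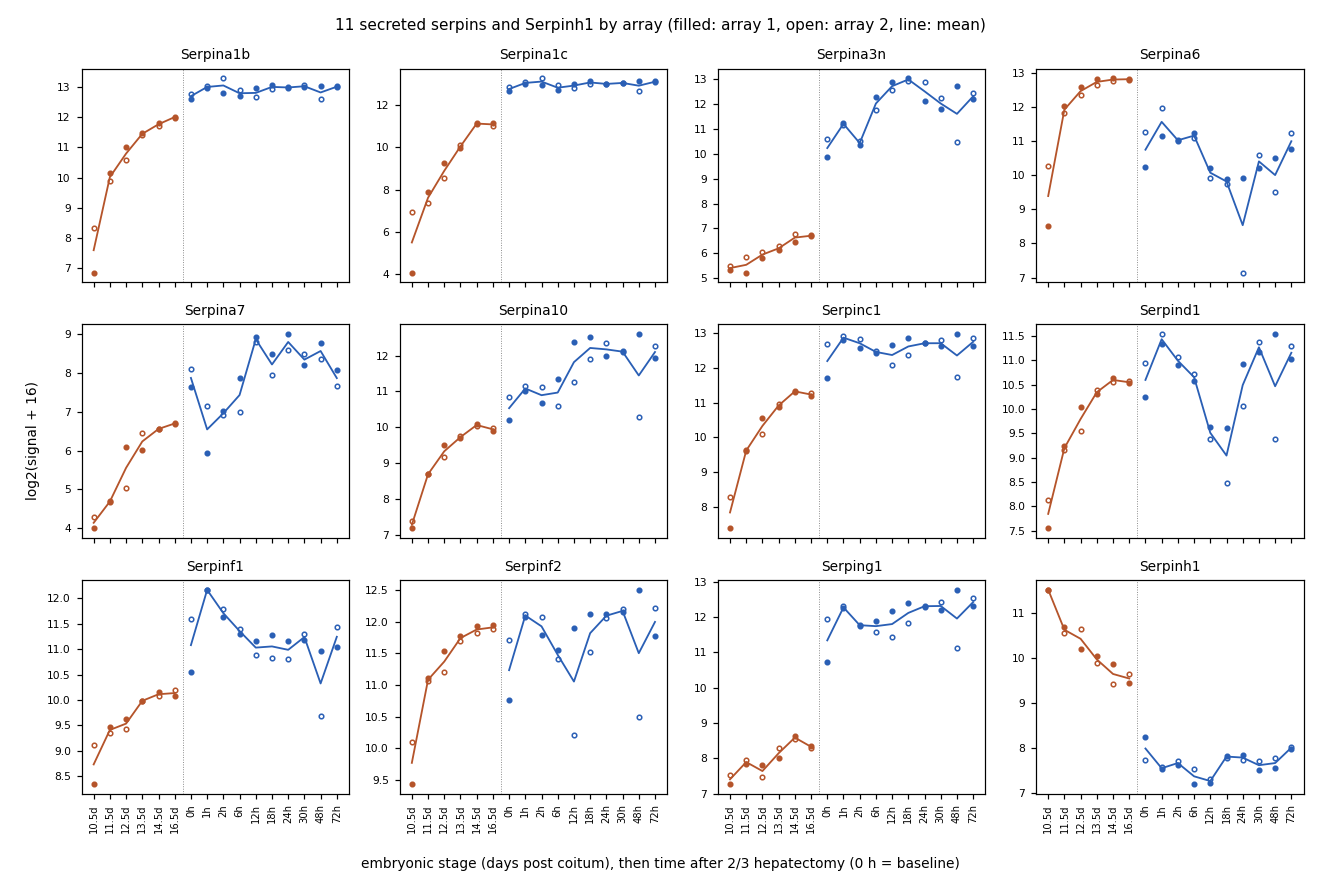
Each panel gives log2(signal + 16) of 1 gene on each array, embryonic stages left of the dotted line and adult times right of it, with a line through the means of the 2 arrays. Serpina1b, Serpina1c and Serpinc1 climb through the stages, Serpinh1 declines, and Serpina3n climbs to its highest values at 18 h after hepatectomy.

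Serpina6, corticosteroid-binding globulin, which carries glucocorticoids and inhibits no protease, was the clade A serpin called higher in the embryo. It had 352.2 and 1208 at 10.5 days, 4132 and 3637 at 11.5 days, 6145 and 5203 at 12.5 days, 7226 and 6437 at 13.5 days, 7343 and 6974 at 14.5 days and 7145 and 7270 at 16.5 days, and 1192 and 2440 at time 0. From 11.5 days on every embryonic array lay above both time 0 arrays, and both 10.5 day arrays lay below the higher of them. Its log2 change against time 0 was 1.28 ± 0.46 (SE; adjusted p = 0.0231), which was not called without time 0 array 1 or after quantile normalization (adjusted p from 0.00269 to 0.345 over the alternatives).

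Serpinh1, the collagen chaperone Hsp47 of the endoplasmic reticulum, ranged from 673.4 to 2915 in the embryo with a median of 1101, against 286.3 and 196.5 at time 0. The groups did not overlap, and the log2 change was 2.30 ± 0.14 (SE; adjusted p = 7.46e-12). It was highest at 10.5 days with 2911 and 2915, and had 1633 and 1496 at 11.5 days, 1165 and 1581 at 12.5 days, 1036 and 933.5 at 13.5 days, 910.2 and 673.4 at 14.5 days and 678.5 and 783.2 at 16.5 days. It fell by 0.32 ± 0.03 log2 units per day (SE; adjusted p = 7.13e-09). A second Serpinh1 probe set, described below, lay at the control level at 16.5 days. Of 14 measured collagens and collagen-processing partners, clients and co-workers of Serpinh1, 9 were higher and 1 was lower in the embryo than at time 0, with a median log2 change of 0.91 beside 0.02 for all genes, and 1 rose and 8 fell with stage. Of all genes 30.9% were higher and 24.8% lower than at time 0, and 16.4% rose and 11.5% fell with stage. Col1a1 was 3.67 ± 0.19 and Col3a1 2.25 ± 0.19 log2 units higher (SE). Of 8 stellate cell and mesenchyme markers 5 were higher and 3 lower in the embryo, and their sum ranged from 1859 to 2801 there, against 2020 and 2104 at time 0. The signals of neighbouring organs named above were also highest at 10.5 days, and their part in the Serpinh1 values was not tested.

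Among the clade B serpins, Serpinb2, the plasminogen activator inhibitor PAI-2 of macrophages, ranged from 17.1 to 104.3 in the embryo with a median of 51.4, against 6.302 and 13.77 at time 0. The groups did not overlap at these dim levels (log2 change 1.30 ± 0.23 SE; adjusted p = 5.76e-05). Serpinb6b ranged from 104.9 to 174, against 70.44 and 93.73 at time 0 (log2 change 0.61 ± 0.17 SE), and its call was lost without time 0 array 1 (adjusted p from 0.00188 to 0.118 over the alternatives). Serpinb5, known as maspin, ranged from 42.09 to 135.7, against 183.9 and 163.5 at time 0 (log2 change -1.15 ± 0.24 SE). Serpinb9d ranged from 11.21 to 23.32, against 63.37 and 83.42 at time 0 (log2 change -1.48 ± 0.17 SE), and neither gene overlapped with time 0. Nor did Serpinb8, which ranged from 3.505 to 36.1, against 53.83 and 54.07 at time 0 (log2 change -1.04, limma adjusted p = 3.01e-05). Serpinb3a and Serpinb9 were called lower as well (log2 change -1.02 and -0.41), and so was the clade A gene Serpina12 (-0.51). The calls of Serpinb3a, Serpinb9 and Serpina12 were lost in some of the alternatives run. Serpinb12 and Serpinb9g were lower at dim levels (log2 change -0.80 ± 0.31 and -0.55 ± 0.22 SE), and both calls were lost without time 0 array 2; so was that of the clade A gene Serpina3a (-0.64 ± 0.22 SE), which ranged from -2.453 to 18.56 in the embryo, against 16.37 and 22.72 at time 0. Serpinb12 had 22.45 and 76.02 at time 0, so its control arrays differed.

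Serpinb6e was high early in the embryo. It had 251.5 and 228.1 at 10.5 days and 185.4 and 195.2 at 11.5 days, then between -20.58 and 51.24 on the 8 arrays from 12.5 to 16.5 days, against 126.3 and 154.1 at time 0. The first 4 embryonic arrays lay above both time 0 arrays and the 8 later ones below both, and the slope was -0.54 ± 0.06 log2 units per day (SE; adjusted p = 6.99e-07). Over the mean of the 6 stages it was called lower than at time 0 (log2 change -1.515, limma adjusted p = 0.000488). The Serpinb6e probe set is of the type that may bind several transcripts.

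The second comparison asked what changed after hepatectomy. Against time 0, 1 of 40 serpins was called over 1 to 6 h, 2 over 12 to 30 h and 1 over 48 to 72 h, all higher. Of all genes 0.978%, 4.79% and 2.65% were called (0.726%, 2.61% and 2.01% higher, 0.253%, 2.18% and 0.638% lower). Counts this small among 40 are near the share of all genes. The median log2 changes of the 40 were 0.10, 0.10 and 0.19 in these phases. Without the 3 arrays that stood apart (48 h array 2, 12 h array 2 and 10.5 days array 1) the counts were 2, 5 and 4, and after quantile normalization the later phases had 2 higher and 2 lower, and 2 higher and 3 lower. The median over 12 to 30 h was then -0.03. A test for any difference over the 9 times called 10 of 40, where it called 18.2% of all genes.

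Serpina3n had the largest called change. The time 0 arrays had 915.2 and 1521, and the early arrays 2373 and 2283 (1 h), 1290 and 1428 (2 h) and 4874 and 3464 (6 h). The middle arrays had 7509 and 5907 (12 h), 8296 and 7773 (18 h), 4456 and 7471 (24 h) and 3561 and 4734 (30 h), and the late arrays 6745 and 1400 (48 h) and 4634 and 5445 (72 h). All arrays from 6 h on lay above both time 0 arrays except 48 h array 2, the array with the high Actb ratio. Over 12 to 30 h its log2 change was 2.32 ± 0.35 (SE; adjusted p = 0.000357), and it was called in each of the 43 alternatives run, with values from 1.96 to 2.68 and an adjusted p of at most 0.0332. Over 48 to 72 h it was 1.72 ± 0.38 (adjusted p = 0.0127), which was not called without time 0 array 1 or in the fit of only the arrays compared (adjusted p from 6.47e-06 to 0.786 over the alternatives).

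Serpina10 ranged from 2452 to 5891 over 12 to 30 h with a median of 4399, against 1174 and 1836 at time 0. The groups did not overlap (log2 change 1.54 ± 0.37 SE; adjusted p = 0.0187), but the call was lost without either time 0 array (adjusted p from 7.82e-05 to 0.298 over the alternatives). With the 3 arrays of 12 h, 48 h and 10.5 days that stood apart left out, Serpina10 was also called over 48 to 72 h (log2 change 1.81), and Serping1 and Serpinf2 were called higher in both later phases. Serping1 then had log2 changes of 0.89 over 12 to 30 h and 1.26 over 48 to 72 h, and Serpinf2 0.76 and 1.02. In the fit of all arrays these 2 genes were not called in any phase.

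Taken time by time against time 0, 11 changes were called. At 6 h (2.12% of all genes called) they were Serpina3n, Serpinb1a and Serpina4-ps1. At 12 h (8.88% of all genes) they were Serpina3n and Serpinh1, which had 133.2 and 142 there, against 286.3 and 196.5 at time 0. At 18 h (7.73%) they were Serpina3n, Serpina10 and Serpind1. Serpina3n was called at 24 h (1.25%) and, with Serpinb1a, at 72 h (3.14%). Serpinh1, Serpind1 and Serpina4-ps1 were lower and the others higher. At 1, 2, 30 and 48 h limma called 0 serpins (0.484%, 0.572%, 0.352% and 1.5% of all genes), where 6, 3, 5 and 5 had an unadjusted p under 0.05. Without time 0 array 1 the calls numbered 3, and without 48 h array 1 they numbered 24.

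Of the abundant plasma serpins, Serpinc1 ranged from 5485 to 7718 over 1 to 6 h, from 4332 to 7332 over 12 to 30 h and from 3380 to 7972 over 48 to 72 h, around time 0 values of 3325 and 6495. Serpina1b, Serpina1c and Serpinc1 were not called in any phase, and the direction of their changes turned under quantile normalization.

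Between the early and the middle phase, a comparison added after the data had been seen, 9 serpins were called, 3 higher and 6 lower over 12 to 30 h than over 1 to 6 h, where 15.3% of all genes were called (6.99% higher and 8.28% lower). This comparison does not use the time 0 arrays. Serpina7 was 1.58 ± 0.19 log2 units higher (SE; adjusted p = 6.49e-06), with values from 233.4 to 500.3 over 12 to 30 h, against 45.71 to 217.5 over 1 to 6 h, without overlap. Serpina3n and Serpina10 were 1.34 ± 0.24 and 1.09 ± 0.26 log2 units higher (SE).

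Serpina6 moved the other way. It ranged from 125.8 to 1544 over 12 to 30 h with a median of 956.6, against 2054 to 4038 with a median of 2214 over 1 to 6 h, without overlap (log2 change -1.54 ± 0.33 SE; adjusted p = 0.00212). The lowest value came from 24 h array 2, where array 1 had 955.3. Serpind1 was 0.95 ± 0.25 log2 units lower (SE; adjusted p = 0.0109), and its lowest adult values were 762.2 and 341.5 at 18 h and 774.7 and 656.3 at 12 h, apart from 656.2 on 48 h array 2. Serpinf1 was 0.67 ± 0.18 and Serpina12, the adipokine vaspin, 0.46 ± 0.13 log2 units lower (SE), and both of these calls were lost with the mean over probe sets. Serpina4-ps1 had its lowest adult mean at 6 h, with 180.4 and 275.9, against 846.9 and 1060 at time 0 (log2 change -2.01 ± 0.46 SE; adjusted p = 0.0201), a call lost without either time 0 array or 6 h array 1 (adjusted p from 0.004 to 0.295 over the alternatives).

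Serpinb1a, an inhibitor of neutrophil elastase, cathepsin G and proteinase 3, gave calls on 1 of its 2 probe sets that the other did not give, and changes of opposite sign in the embryo. On the probe set of higher mean signal it had 11.38 and 13.36 at time 0, 134.1 and 140.5 at 6 h, values from -20.13 to -2.076 over 12 to 30 h and 48.33 and 44.89 at 72 h. The log2 change was 1.30 ± 0.25 over 1 to 6 h (SE; adjusted p = 0.0079), and it was called lower over 12 to 30 h than over 1 to 6 h. All arrays over 12 to 30 h were set to 0 there, so the size of that change depends on the added constant (log2 change from -3.75 to -0.50 over the alternatives, the smallest with the other probe set). On the other probe set, which may bind several transcripts, it had 25.09 and 31.2 at time 0, 64.46 and 39.17 at 6 h and 23.65 and 30 at 72 h, and the change over 1 to 6 h was not called; the call on the first probe set was also lost without either time 0 array (adjusted p from 9.16e-05 to 0.719 over the alternatives). In the embryo the first probe set gave 63.16 and 34.02 at 11.5 days and 104.9 and 110 at 16.5 days and a log2 change of 1.09 ± 0.23 against time 0 (SE; adjusted p = 0.000416), while the second gave 26.21 and 23.64 at 16.5 days and a change of -0.41 ± 0.24 that was not called. Both readings of highest mean, on the deposited and on the log2 scale, were run before 1 was kept, and the choice decides whether any serpin was called over 1 to 6 h. The sum of 6 neutrophil markers was 1832 and 1859 at 6 h and 7235 and 7638 at 16.5 days, against 551.2 and 576.4 at time 0. At 6 h 2 of the 6 were called higher, where 1.06% of all genes were. The sum was 1505 and 1178 at 12 h and 1371 and 1128 at 18 h, where the first Serpinb1a probe set was below 0 on every array. The part of neutrophils in the Serpinb1a values was not tested.

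Serpinb8 and Serpinb9, the second of them a guard against granzyme B, were higher over 48 to 72 h than over 12 to 30 h. Neither was called over 48 to 72 h against time 0. Serpinb8 had itself been called lower over 12 to 30 h than over 1 to 6 h (log2 change -0.46, limma adjusted p = 0.0132), a call lost in some of the alternatives run. It had 53.83 and 54.07 at time 0 and 55.04 to 68.29 over 1 to 6 h. Of its late arrays only those of 72 h lay above these values. Over 48 to 72 h against 12 to 30 h, 3 serpins were called, all higher, where 5.67% of all genes were called (4.09% higher and 1.58% lower): Serpinb1a, Serpinb8 and Serpinb9. Serpinb8 had 100.4 and 86.89 at 72 h and 52.13 and 62.84 at 48 h, against 27.66 to 62.65 over 12 to 30 h (log2 change 0.71 ± 0.14 SE; adjusted p = 0.00292). Serpinb9 had 115.1 and 125.8 at 72 h and 81.43 and 97.44 at 48 h, against 55.41 to 92.2 over 12 to 30 h (log2 change 0.42 ± 0.11 SE; adjusted p = 0.0263), a call that was lost without the 3 arrays or without either 72 h array (adjusted p from 0.011 to 0.149 over the alternatives). Of 8 macrophage markers 3 were higher in the same comparison, and their sum ranged from 3185 to 6842 over 48 to 72 h, against 2816 to 4420 over 12 to 30 h; their part was not tested.

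**Figure D4:**
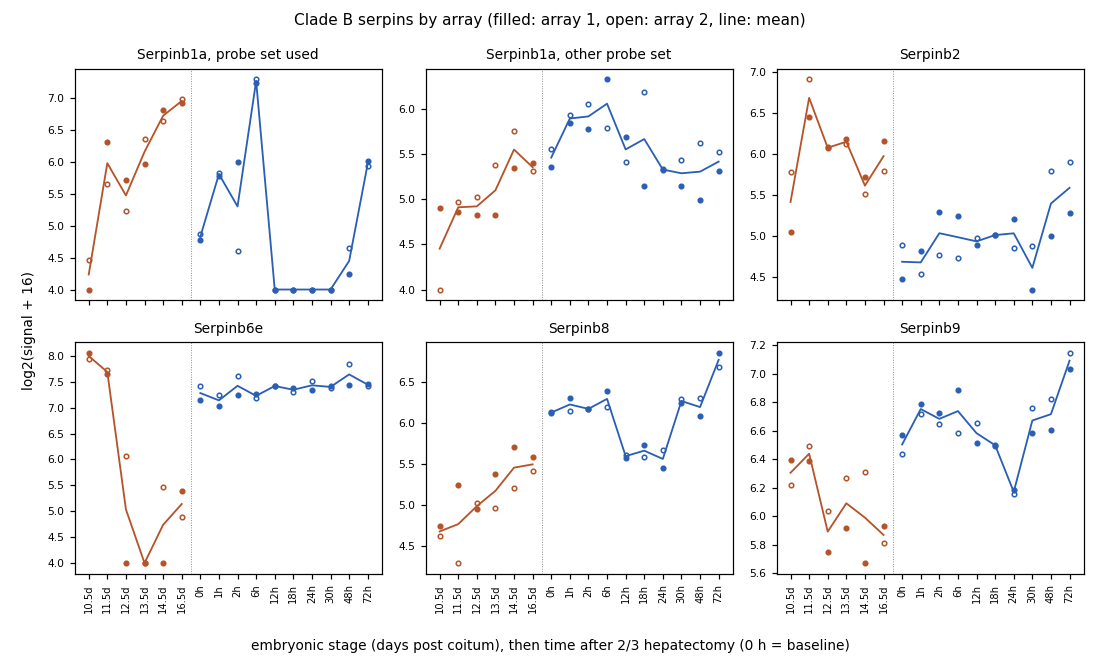
Each panel gives log2(signal + 16) on each array for 1 probe set, embryonic stages left of the dotted line and adult times right of it, with a line through the means. The used Serpinb1a probe set peaks at 6 h and sits at its floor from 12 to 30 h, the other has its highest mean at 6 h as well and does not reach that floor there, and Serpinb6e drops between 11.5 and 12.5 days.

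The proteases that the plasma serpins restrain were lower in the embryo too. Of 12 coagulation, contact and complement proteases 11 were lower and none higher than at time 0 (24.8% of all genes were lower), with a median log2 change of -2.67 beside 0.02 for all genes, and 11 rose with stage. Factor IX, F9, was 4.32 ± 0.20 log2 units lower and factor VII, F7, 3.34 ± 0.22 (SE). Of 11 genes of the plasminogen system 2 were higher and 7 lower, among them plasminogen, Plg, which fell by 2.34 ± 0.28 log2 units (SE). Of 11 leukocyte and lysosomal proteases, targets of several clade B serpins, 3 were higher and 4 lower, shares near those of all genes (30.9% and 24.8%), and 7 rose with stage, where 16.4% of all genes did. Proteinase 3, Prtn3, was 2.63 ± 0.33 log2 units higher and cathepsin G, Ctsg, 0.64 ± 0.13 (SE). After hepatectomy limma called 0 of the 12 coagulation, contact and complement proteases in any phase against time 0, where 0, 3 and 1 had an unadjusted p under 0.05 over 1 to 6 h, 12 to 30 h and 48 to 72 h. Of all genes 0.978%, 4.79% and 2.65% were called in these phases, so a count of 0 among 12 is near the share of all genes. Taken time by time, 2 were lower at 12 h and 2 at 18 h, where 4.64% and 3.26% of all genes were lower. Over 12 to 30 h against 1 to 6 h, F7 and plasma kallikrein, Klkb1, were lower, and over 48 to 72 h against 12 to 30 h Klkb1 and the complement protease C1s1 were higher. Prtn3 was called over 48 to 72 h (2.70 ± 0.37 SE; adjusted p = 0.000201), as was the lysosomal protease cathepsin S, Ctss (0.95 ± 0.17 SE).

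Against regenerating liver at 48 to 72 h, embryonic liver had 7 serpins higher and 23 lower, where 66.6% of all genes were called (35.7% higher and 30.8% lower). The higher ones were Serpinh1, Serpina6, Serpina3i, Serpinb1a, Serpinb2, Serpinb6a and Serpinb6b. Of these, the calls of Serpina3i, Serpinb1a, Serpinb2, Serpinb6a and Serpinb6b were lost in some of the alternatives run. Among the lower ones, so were those of Serpina5, Serpinf1 and Serpini1. The embryonic arrays are shared with the comparison against time 0. Serpina3n was 5.87 ± 0.25 and Serping1 4.19 ± 0.23 log2 units lower than at 48 to 72 h (SE), against changes of -4.15 and -3.34 relative to time 0, and Serpinh1 was 2.45 ± 0.11 log2 units higher (SE). Serpini1, neuroserpin, reached at most 35.51 on its used probe set and was 0.81 ± 0.19 log2 units lower (SE), but a second of its 3 probe sets gave 0.70 higher. Serpinb9b was 0.37 ± 0.10 log2 units lower (SE), from 44.75 to 78.29 in the embryo, against 70.23 to 105.6 at 48 to 72 h, with overlap. Serpina1f was also called lower (log2 change -0.43, limma adjusted p = 0.00221), from 95 to 170, against 153.2 to 187.2, with overlap. Serpinb6a was called higher (log2 change 0.47, limma adjusted p = 0.0362), from 392.4 to 724.3, against 248.7 to 444.7, with overlap. Serpinb7, Serpinb6c, Serpini2, Serpinb9c, Serpinb1b and Serpinb11 were called in no test described above.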

How the data were processed

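The authors deposited 1 table of linear signal intensity per probe set and array for 32 Affymetrix arrays; how it was summarised and scaled is not given in the sources used here. Groups came from the source labels, since age and description fields of embryonic samples conflict with them. Values below 0 were set to 0, and log2(signal + 16) was computed from the deposited intensities. Of 45101 probe sets, 34958 list 1 gene, 932 several and 9211 none here; the one of highest mean signal stood for each of 18194 genes. This probe set rule was kept after its results and those of the highest log2 mean had both been seen. limma 3.58.1 in R 4.3.3 fitted 1 mean per group over all arrays (residual degrees of freedom 16, prior 4.72). Variances were moderated by eBayes with a mean trend, with Benjamini-Hochberg adjustment over all genes. Each array is a separate pool per the labels, so p-values measure the spread between pools. The fit was tested on simulated data. Every serpin was accounted for. Named were genes called in a comparison, though not with values for each contrast, and known liver serpins. The members and the lists of proteases, collagens and cell type markers were chosen with earlier results of these data known. Lists for endothelium, lymphocytes, megakaryocytes, mast cells, bile duct and placenta were also counted. Comparisons between phases and of 16.5 days with time 0 were added after seeing the data. Alternatives changed the constant, normalization, filter, probe set, arrays, block and prior. RefSeq promoters (GRCm38.p6) were aligned with Biopython 1.88; 34 of 40 serpins matched. The number of arrays limits the precision.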

Additional observations from a re-analysis of the deposited data

Results flagged for a closer look

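Serpinh1 has a second probe set, not used for the values above, that was higher in embryonic liver than in the control livers, with a log2 change of 1.46 ± 0.17 (SE; adjusted p = 2.22e-07 over all probe sets). That probe set is of a type that may bind several transcripts. It had 2231 and 1793 at 10.5 days, 651.9 and 734.5 at 11.5 days and 84.82 and 83.17 at 16.5 days, against 102.9 and 83.78 at time 0, so at 16.5 days it lay at the control level, where the used probe set stood at 678.5 and 783.2, against 286.3 and 196.5 at time 0.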

How the results depend on the processing

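The serpin counts moved by over 1.5 times under these settings. Quantile normalization gave 4 over 12 to 30 h, 5 over 48 to 72 h, 23 over the single times (14 higher and 9 lower, in place of 11 with 8 higher and 3 lower) and 7 for 48 to 72 h against 12 to 30 h (5 higher and 2 lower). It shifted the median gene by -0.15 on the log2 scale at 16.5 days against time 0. Leaving out probe sets that may bind several transcripts gave 1 over 12 to 30 h, with no Serpina10 probe set left. Fitting in limma only the arrays compared gave 0 over 1 to 6 h, 0 over 48 to 72 h and 0 over the single times, where 6, 5 and 44 had an unadjusted p under 0.05, and 6 over the 9 times. Leaving out the 3 arrays gave 2, 5 and 4 in the 3 phases and 25 over the single times (20 higher and 5 lower). The probe set of highest log2 mean gave 0 over 1 to 6 h, where 5 had an unadjusted p under 0.05. The last 2 settings were chosen after seeing the data.

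Leaving out each array in turn, the counts ranged from 0 to 2 for 1 to 6 h against time 0, from 1 to 4 for 12 to 30 h against time 0, from 0 to 4 for 48 to 72 h against time 0, from 19 to 28 for embryo against time 0, from 27 to 32 for embryo against 48 to 72 h, from 16 to 19 for the change per day, from 7 to 15 for the F test over the 9 times, from 10 to 19 for the F test over the 6 stages, from 3 to 24 for the single times, from 8 to 10 for 12 to 30 h against 1 to 6 h, from 2 to 10 for 48 to 72 h against 12 to 30 h, from 13 to 20 for 16.5 days against time 0. The counts of 0 came without time 0 array 1, or for 1 to 6 h without either time 0 array. Without 48 h array 1 and without 48 h array 2 the single times had 24 and 22 calls and 48 to 72 h had 4 and 3. The replicate block gave 9 in place of 10 over the 9 times and 17 in place of 16 over the 6 stages and left the other counts as they were; the numbers are not shown to pair the arrays (residual correlations from -0.357 to 0.555 over 120 pairs of groups, 17 over 0.1).

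Some log2 changes turned sign, and the cause was not tested. With the mean over probe sets the values were Serpinb9 0.0348 (12 to 30 h against time 0), Serpini1 -0.0046 (48 to 72 h against time 0), Serpina12 -0.44 (embryo against 48 to 72 h), Serpini1 -0.0362 (per day of stage). With the probe set of highest log2 mean the values were Serpini1 -0.26 (1 to 6 h against time 0), Serpini1 -0.35 (12 to 30 h against time 0), Serpinb1a -0.10, Serpini1 -0.55 (48 to 72 h against time 0), Serpinb1a -0.41, Serpini1 0.15 (embryo against time 0), Serpinb1a -0.31, Serpini1 0.70 (embryo against 48 to 72 h), Serpini1 -0.0653 (per day of stage), Serpinb1a -0.0444 (72 h against time 0), Serpinb1a -0.10 (48 to 72 h against 12 to 30 h), Serpinb1a -0.11 (16.5 days against time 0). After quantile normalization the values were Serpina1b -0.0096, Serpina1c -0.0352, Serpinc1 -0.0081 (1 to 6 h against time 0), Serpina1b -0.0715, Serpina1c -0.0777, Serpinc1 -0.15, Serpinf2 -0.0364 (12 to 30 h against time 0), Serpina1b -0.0599, Serpina1c -0.021, Serpinc1 -0.0936, Serpind1 -0.0486 (48 to 72 h against time 0), Serpinf2 -0.71 (embryo against time 0), Serpina3i -0.0022 (embryo against 48 to 72 h), Serpinb6a -0.0078 (per day of stage). Without the 3 arrays the values were Serpinf1 0.0329 (12 to 30 h against time 0), Serpina5 -0.19, Serpina6 0.0004, Serpinb6a 0.0539, Serpinf1 0.0229 (48 to 72 h against time 0). Among these, Serpini1 against 48 to 72 h was called on both sides of 0. Serpinb1a (against time 0 and 48 to 72 h in the embryo, at 16.5 days and 72 h, and between the late phases) and Serpina3i were called in the fit reported and not under the setting that turned them. Serpinf2 (embryo against time 0) and Serpina12 were called under that setting and not in the fit reported. Leaving out 1 array turned the sign of changes that were not called with all arrays, with ranges of Serpina5 -0.0897 to 0.10, Serpina6 -0.01 to 1.01, Serpinb6a -0.29 to 0.38, Serpinc1 -0.0009 to 0.96, Serping1 -0.0104 to 1.19 (1 to 6 h against time 0), Serpinb6a -0.22 to 0.45, Serpinb9 -0.0882 to 0.043, Serpinc1 -0.0784 to 0.88, Serpinf1 -0.52 to 0.52 (12 to 30 h against time 0), Serpina5 -0.19 to 0.42, Serpina6 -0.76 to 0.26, Serpinb6a -0.48 to 0.19, Serpinc1 -0.13 to 0.84, Serpind1 -0.32 to 0.75, Serpinf1 -0.82 to 0.22, Serpinh1 -0.41 to 0.10 (48 to 72 h against time 0), Serpinb6a -0.0146 to 0.66, Serpinf2 -0.41 to 0.53 (embryo against time 0), Serpina12 -0.0382 to 0.33, Serpinf2 -0.96 to 0.0447 (embryo against 48 to 72 h), Serpinb6a -0.0254 to 0.0457, Serpini1 -0.016 to 0.0404 (per day of stage). Of these, Serpina12 and Serpinf2 in the embryo against 48 to 72 h had calls, Serpina12 without 48 h array 1 and Serpinf2 without 48 h array 2. With 2 arrays per group, and time 0 arrays that differ, every comparison with time 0 is limited, and dim genes lie near the added constant.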

Other observations

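Among marker lists not named above, 3 of 6 megakaryocyte genes were higher in the embryo than at time 0 and none lower, 2 of 5 lymphocyte genes were higher and 2 lower, 1 of 8 endothelial genes was higher and 1 lower, and 1 of 5 mast cell and basophil genes was higher and 1 lower. Of 3 placenta and decidua genes 1 was lower, and limma called 0 of 4 bile duct genes, 1 of which had an unadjusted p under 0.05. In the same comparison 30.9% of all genes were higher and 24.8% lower.

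Across the 16 other single-gene serpin probe sets, 12 had the same call between embryo and time 0 as the probe set used for their gene. The probe set shared by Serpina1d and Serpina1a had 2821 and 2660 at 16.5 days, against 3162 and 7208 at time 0. The probe set shared by Serpina1e, Serpina1c and Serpina1b was below 0 on both 10.5 day arrays and had 532.3 and 373.7 at 16.5 days, against 1289 and 2761 at time 0. Serpinb3a was below 0 on all 4 arrays of 10.5 and 11.5 days and between 5.796 and 56.76 on the 8 later embryonic arrays. Serpina5, the protein C inhibitor, had 123.8 and 66.8 at 18 h and 46.35 and 83.42 at 12 h, against 39.57 and 33.71 at time 0, and 93.08 on 48 h array 2, where array 1 had 30.79. It was not called in any phase against time 0. In the embryo it was lower than at 48 to 72 h (log2 change -0.76, limma adjusted p = 0.00438), a call lost in some of the alternatives run.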
